A study of Bos taurus with 12 samples.

Results

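Transcripts of 10 antioxidant genes were followed in the mammary gland of Holstein cows before and during feed restriction. The genes were the superoxide dismutases SOD1 and SOD2, the catalase CAT, the peroxiredoxins PRDX1, PRDX3 and PRDX5, the thioredoxin reductase TXNRD1, the quinone reductase NQO1, the heme oxygenase HMOX1, and NFE2L2, which encodes the transcription factor NRF2. They were chosen by name, through the RefSeq transcript of each probe, and all 10 were on the array with 24 probes, out of 12787 named genes and 43653 probes. The 12 arrays were hybridised with mammary biopsy RNA of 6 lactating cows, 1 array per biopsy. In CONT (day 0) the cows ate a lactation diet without limit. In REST (day 6) the feed covered 50% of their calculated energy need for lactation. The labels name 6 cows, whereas the series text counts 5, and the methods mention a Holstein cow set aside for mastitis, so the tests were repeated without each of the cows. No cow stayed on full feed until day 6 in these data, so restriction and the passing of time between the biopsies cannot be told apart.

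Superoxide leaks from the respiratory chain and from oxidases. Superoxide dismutases turn it into hydrogen peroxide, SOD1 mainly in the cytosol and SOD2 in the mitochondrial matrix, and catalase and peroxiredoxins remove the peroxide. Most peroxiredoxins are recharged by thioredoxin, which thioredoxin reductase keeps reduced with NADPH. NRF2 is held in the cytosol and marked for breakdown by KEAP1 in an ubiquitin ligase with CUL3 and RBX1. When KEAP1 is modified by oxidants, NRF2 enters the nucleus, pairs with small MAF proteins and activates genes such as NQO1, HMOX1, TXNRD1 and PRDX1. The secreting mammary epithelium is rich in mitochondria and works at a high metabolic rate, which makes this system of interest in lactation.

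The arrays lay on 3 slides, and both biopsies of a cow shared a slide. Slide 1 carried cows 1 and 2, slide 2 carried cows 3 and 4, and slide 3 carried cows 5 and 6. Slide 3 was dimmer, with 41.9 to 48.0% of spots well above background against 61.8 to 67.9% on the other slides, and no probe was saturated (0 spots). Signals below are log2 values relative to the 75th percentile of the array, so that levels may be compared between arrays but not between probes. Before it was subtracted, that percentile differed between the periods as well. In 6 of 6 cows it was higher on day 6, by 0.30 ± 0.10 in log2 (mean ± SD, n = 6). This shift was about as large as the changes of PRDX3 (-0.29) and CAT (0.25), and its part in the changes below was not tested. The luminal epithelial markers KRT8, KRT18, KRT19, ELF5 and EPCAM were all above background on every array of at least 1 group, and CDH1 on 9 of 12 arrays. Markers of other cells were measured as well, such as ACTA2, KRT5 and KRT14 of myoepithelial cells, CD79A of B cells, FABP4 of adipocytes and HBA of red blood cells. Of the same lists TP63, MS4A1, PLIN1, ALAS2 and SLC4A1 were above background on 0 arrays.

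Changes in the 10 genes were small. With the brightest tested probe of each gene, 1 of 10 passed an adjusted p of 0.1 (limma with the cow as a block, Benjamini-Hochberg over all tested probes), PRDX3, which was lower in REST by 0.29 on the log2 scale (SE 0.09, n = 6 cows). Over all 7932 tested genes the share that passed was 16.2%, with 6.95% higher and 9.27% lower, so the share among these genes was no larger than that background. With any probe of a gene, 2 of 10 passed, PRDX3 and CAT, beside 20.5% of all genes. Of the 23 probes tested, 3 passed, beside 16.0% of all probes. Among these, a dim probe of CAT, entered the test only through its REST arrays, where it is high, and supports nothing. Without pairing by cow, 0 of the 10 brightest probes passed, where the share of all genes was 4.41%, and 1 of 10, CAT, had an unadjusted p under 0.05 in limma, beside 16.9% of all genes. The changes ran from -0.29 for PRDX3 to 0.25 for CAT, with a median of -0.12, and the median over all tested genes was -0.01. The mean was lower in REST for 7 of the 10 genes and higher for CAT, HMOX1 and NFE2L2. The direction was the same in 6 of 6 cows for 3 genes (PRDX3, CAT and NFE2L2), beside 18.3% of all tested genes.

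**Figure D1:**
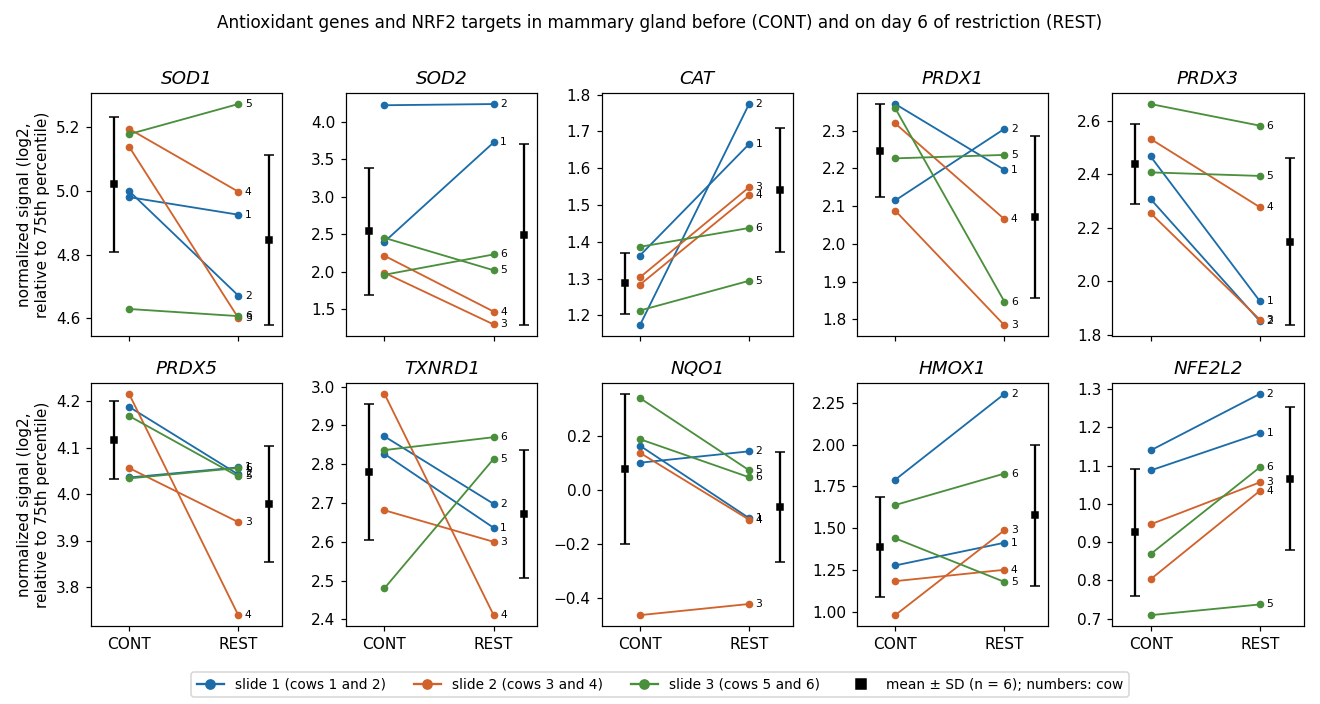
Normalized signal (log2, relative to the 75th percentile of the array) of the brightest tested probe of each gene in CONT and REST, with 1 line per cow coloured by slide and black squares for mean ± SD (n = 6). The vertical scale differs between panels. PRDX3 falls in every cow, CAT and NFE2L2 rise in every cow, and the lines of SOD2 lie far apart, with cow 2 at 4.22 in CONT and 4.24 in REST.

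Of the superoxide dismutases, SOD1, the copper-zinc enzyme, was slightly lower on average in REST and did not pass the test. Its signal lay between 4.63 and 5.20 in CONT (median 5.07) and between 4.60 and 5.27 in REST (median 4.80), so the ranges overlapped almost fully. The change was -0.17 with an SE of 0.10 (95% interval -0.40 to 0.05, adjusted p 0.285), lower in 5 of 6 cows. The 4 probes of SOD1 gave changes from -0.22 to -0.15, all below 0, and 0 of 4 passed. Within slides the brightest probe changed by -0.19, -0.37 and 0.04.

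SOD2, the manganese enzyme of mitochondria, differed far more between cows than between periods. In CONT the values were 2.40, 4.22, 1.98, 2.21, 2.45 and 1.96 in cows 1 to 6, and in REST they were 3.72, 4.24, 1.30, 1.47, 2.02 and 2.23. Cow 2 was thus high in both periods, cow 1 became high in REST, and cows 3, 4 and 5 were lower in REST. The mean change was -0.04 with an SE of 0.25 (95% interval -0.61 to 0.52, adjusted p 0.931), with 3 cows up and 3 down. The sign of this mean was not stable: it turned to 0.07 with normexp background correction and the 75th percentile shift, and to 0.09, 0.10 and 0.04 without cow 3, 4 or 5. Without cow 1 it was -0.32 (SE 0.16, adjusted p 0.293). The SD over cows in CONT, 0.85, was larger than that of 98.3% of all tested genes, whose median SD was 0.24. The change itself also varied widely, from -0.74 in cow 4 to 1.33 in cow 1, with an SD of 0.78 that was above that of 97.5% of tested genes.

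The second probe of SOD2 set the same cows apart, with 2.80 in cow 2 and a median of 1.07 over all cows in CONT, and a difference of 1.23 in cow 1. Within slides, SOD2 changed by 0.67 on slide 1, -0.72 on slide 2 and -0.08 on slide 3. SOD2 is induced by inflammatory signals in many cells, and markers of macrophages were therefore set beside it. Of these, 8 of 9 were tested (MRC1 had no named probe here), and 1 passed, C1QA (-0.47, adjusted p 0.0375), beside 16.2% of all tested genes. Of the others, CD163 (0.33), CSF1R (0.27) and CD68 (0.17) had means above CONT and 4 had means below, and the list median was -0.13. Their summed level was highest in cow 2 in both periods, at 4.995 in CONT (other cows 3.64 to 4.62) and 4.79 in REST (other cows 3.63 to 4.07). In cow 1, however, it fell by 0.55 where SOD2 rose. For other leukocyte markers, of which 5 of 7 were tested, the summed level lay between 2.72 and 2.95 in CONT and between 2.69 and 2.89 in REST. The part of these cells in the SOD2 values was not tested, and in bulk tissue a change in cell number and a change in RNA per cell cannot be told apart.

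Catalase, which breaks down hydrogen peroxide chiefly in peroxisomes, was higher in REST in 6 of 6 cows. With the brightest probe the signal was 1.17 to 1.39 in CONT (median 1.29) and 1.29 to 1.77 in REST (median 1.54). The ranges overlapped only through cow 5, the lowest in REST. The change was 0.25 with an SE of 0.09 (95% interval 0.05 to 0.46, 1.19-fold), just short of the threshold with an adjusted p of 0.116. The other probes had larger differences. The next brightest went from 0.52 ± 0.19 to 0.93 ± 0.18 (mean ± SD, n = 6), which is 0.40 higher (SE 0.11, adjusted p 0.0619), and was above CONT in 6 of 6 cows. It also passed without the pairing (adjusted p 0.0966). Another probe changed by 0.42 (adjusted p 0.139), higher in 4 of 6 cows. The remaining probe, above background on 4 of 6 CONT and on 6 of 6 REST arrays, was tested only because it is high in REST, so its change of 0.67 (SE 0.18, adjusted p 0.0572) is given as a value only.

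The rise of CAT was largest on slide 1 (0.45) and smaller on slides 2 (0.24) and 3 (0.07). The call of the brightest probe depended on the settings: CAT passed under quantile normalization (adjusted p 0.0963), under both normexp settings (0.0433 and 0.0676), with the cow as a random block (0.0548) and with eBayes with trend and robust (0.0890). Red blood cells hold much catalase. Of the 6 erythrocyte markers 2 were tested, HBA and AHSP, and their summed level lay between 3.79 and 4.34 in CONT and between 3.39 and 4.37 in REST. It changed by -0.33 ± 0.30 (mean ± SD, n = 6), higher in 1 of 6 cows. The part of these cells in the CAT values was not tested.

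The peroxiredoxins of the set were all lower on average in REST. PRDX3, the peroxiredoxin of the mitochondrial matrix, passed the test. Its signal lay between 2.25 and 2.66 in CONT (median 2.44) and between 1.85 and 2.58 in REST (median 2.10). The periods overlapped, because cows 4, 5 and 6 kept values in REST within the range of CONT. The change was -0.29 with an SE of 0.09 (95% interval -0.50 to -0.08, 0.818-fold, adjusted p 0.0910), lower in 6 of 6 cows. By cow the differences were -0.54, -0.46, -0.40, -0.25, -0.01 and -0.08 for cows 1 to 6. The fall was therefore close to 0 in both cows of slide 3, and the means within slides were -0.50, -0.33 and -0.05. Slide 3 was also the dimmer one, and the part of signal strength in this difference between slides was not tested.

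PRDX3 was measured by 1 probe, and its call was fragile. It was lost without the pairing (adjusted p 0.318), with the slide as the block (0.155), under quantile normalization (-0.27, 0.124), and with normexp before the 75th percentile shift (-0.18, 0.206). It was also lost without cow 1, 2, 3, 4 or 6, with adjusted p of 0.209, 0.229, 0.176, 0.181 and 0.108 and changes from -0.33 to -0.24, and it held without cow 5 (-0.35, 0.0707).

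PRDX1, the major cytosolic peroxiredoxin and itself a target of NRF2, had signals between 2.09 and 2.37 in CONT (median 2.27) and between 1.78 and 2.30 in REST (median 2.13). Its change was -0.17 with an SE of 0.10 (95% interval -0.41 to 0.06, adjusted p 0.302). It was lower in 4 cows, most in cow 6 (-0.51), and the periods overlapped. PRDX5, an atypical peroxiredoxin found in mitochondria, peroxisomes and cytosol, had signals of 4.03 to 4.22 in CONT (median 4.11) and 3.74 to 4.06 in REST (median 4.04). Its brightest probe changed by -0.14 with an SE of 0.09 (95% interval -0.34 to 0.06, adjusted p 0.346). The other 2 probes of PRDX5 changed by -0.22 and -0.21, with adjusted p of 0.117 and 0.126, and were lower in 5 and 6 of 6 cows. None of the 3 probes passed (0 of 3), yet all were below 0.

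**Figure D2:**
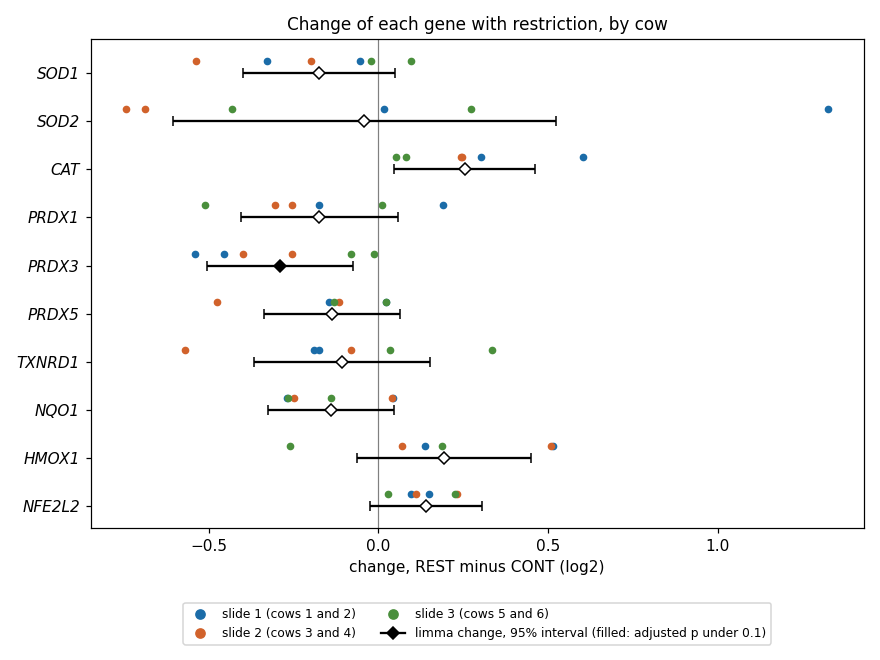
Change of each gene (REST minus CONT, log2) with its 95% interval from limma (diamonds, filled where the adjusted p was under 0.1) and the difference of each cow (dots, coloured by slide), for the brightest tested probe. PRDX3 at -0.29 is the filled symbol, the interval of CAT (0.05 to 0.46) also lies above 0, and the dots of SOD2 spread from -0.74 to 1.33.

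TXNRD1, the cytosolic thioredoxin reductase, had signals between 2.48 and 2.98 in CONT (median 2.83) and between 2.41 and 2.87 in REST (median 2.67). It changed by -0.11 with an SE of 0.11 (95% interval -0.37 to 0.15, adjusted p 0.571). Cow 4 was lower by 0.57 in REST and cow 5 higher by 0.33, and the periods overlapped. Without cow 4 the mean change was -0.02, and without cow 5 it was -0.20. A second probe of TXNRD1 was above background on 4 CONT and 5 REST arrays and was not tested.

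NQO1 and HMOX1, the enzymes most often read as signs of NRF2 activity, moved in opposite directions, and neither passed. NQO1, which reduces quinones, had signals from -0.46 to 0.34 in CONT (median 0.15) and from -0.42 to 0.14 in REST (median -0.03). Its change was -0.14 with an SE of 0.08 (95% interval -0.33 to 0.05, adjusted p 0.303), lower in 4 of 6 cows, and its second probe changed by -0.10. Cow 3 was the lowest for NQO1 in both periods. HMOX1, which opens the heme ring and frees iron, had signals from 0.98 to 1.79 in CONT (median 1.36) and from 1.18 to 2.30 in REST (median 1.45). It was higher in 5 of 6 cows, by 0.51 in cows 2 and 3, and lower in cow 5 (-0.26). The mean change was 0.19 with an SE of 0.11 (95% interval -0.06 to 0.45, adjusted p 0.303). Cow 2, the cow with the highest macrophage markers, also had the highest HMOX1 in both periods. Cow 6, however, had the lowest summed macrophage level in CONT and REST (3.64 and 3.63), yet the next highest HMOX1 (1.64 and 1.83). Macrophages are known for high HMOX1. The part of those cells in HMOX1 was not tested.

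NFE2L2 rose by a small amount in each cow without passing the test. The signal went from 0.71 to 1.14 in CONT (median 0.91) to 0.74 to 1.29 in REST (median 1.08), ranges that overlapped for most of their length. The differences by cow were 0.10, 0.15, 0.11, 0.23, 0.03 and 0.23, and only 1.66% of all tested genes had a smaller SD of the difference than its 0.08. The change was 0.14 with an SE of 0.07 (95% interval -0.02 to 0.30, adjusted p 0.247), and within slides it was 0.12, 0.17 and 0.13. The moderated SE draws on all probes and is therefore wider than these 6 differences alone would give. All 4 probes were higher on average (0.11 to 0.16) and 0 of 4 passed, the dimmest being above background on 5 of 6 CONT arrays and tested through REST. On the 3 dimmer probes only 3, 3 and 4 of 6 cows were higher.

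**Figure D3:**
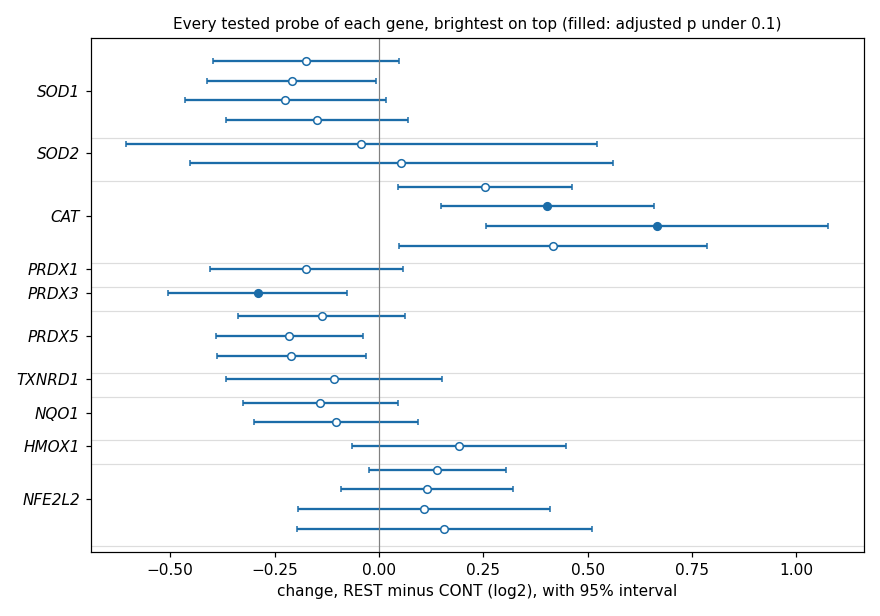
Change (REST minus CONT, log2) with 95% interval for each of the 23 tested probes, grouped by gene with the brightest probe on top and filled where the adjusted p was under 0.1. The 4 probes of CAT (the 1 with a change of 0.67 tested through REST alone) and of NFE2L2 lie above 0 and those of SOD1, PRDX5 and NQO1 below, whereas the 2 of SOD2 fall on both sides (-0.04 and 0.05).

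For the genes that did not pass, the intervals leave room for changes that the arrays could not resolve. Falls of up to 0.33 to 0.41 on the log2 scale lay within the intervals of SOD1, PRDX1, PRDX5, TXNRD1 and NQO1, as did rises of up to 0.05 to 0.15. For HMOX1 the interval ran from -0.06 to 0.45, and for SOD2 from -0.61 to 0.52.

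Other genes of the same pathway were counted in 3 lists. The genes that regulate NRF2 showed 1 rise and 1 fall among 7 tested of 9, where 16.2% of all tested genes passed, and without the pairing 0 of the 7 passed, where the share was 4.41%. SQSTM1, an autophagy receptor that binds KEAP1 and is itself a target of NRF2, changed by 0.37 with an SE of 0.12 (1.29-fold, adjusted p 0.0834). Its signal ranged from 2.02 to 3.94 in CONT and from 2.40 to 3.97 in REST, so the cows differed more than the periods. SQSTM1 was higher in 6 of 6 cows, though by only 0.0007 in cow 3 and 0.04 in cow 5. RBX1, the RING subunit of the ligase that marks NRF2, changed by -0.27 with an SE of 0.08 (adjusted p 0.0652). Its median went from 4.06 in CONT to 3.73 in REST, with 6 of 6 cows lower. Of the probes tested, 1 of 4 passed for RBX1 and 1 of 3 for SQSTM1. KEAP1 changed by 0.12 (adjusted p 0.363) and CUL3 by 0.01 (0.946), and neither passed. The median of the list was 0.01.

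Of the other superoxide, peroxiredoxin and thioredoxin genes, 15 of 22 were tested, 1 passed, beside 16.2% of all tested genes, and the median change was 0.02. The gene that passed was TXNIP, which encodes an inhibitor of thioredoxin that is also known to respond to glucose. TXNIP had signals from 3.84 to 5.79 in CONT (median 4.96) and from 5.20 to 6.43 in REST (median 5.48). The change was 0.82 with an SE of 0.26 (1.77-fold, adjusted p 0.0872), higher in 5 of 6 cows, and 2 of 3 probes passed. It was larger on slide 1 (1.57) and slide 2 (0.81) than on slide 3 (0.10). The other peroxiredoxins, PRDX2 (-0.09), PRDX4 (0.06) and PRDX6 (0.05), had adjusted p of 0.529, 0.699 and 0.739 and did not pass. Whether their changes differ from that of PRDX3 was not tested. Thioredoxin itself changed by 0.02 (TXN, adjusted p 0.948), its mitochondrial form by -0.09 (TXN2, 0.517) and the mitochondrial reductase by -0.10 (TXNRD2, 0.470). SOD3 was above background on at most 5 of 12 arrays and was not tested.

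Of the other NRF2 targets, 14 of 19 were tested and 5 passed, 4 higher and 1 lower, with a list median of -0.04. Over all tested genes 6.95% were higher and 9.27% lower, and without the pairing 1 gene of the list passed, where the share of all genes was 4.41%. The iron store subunits were among those that rose. FTH1, the ferritin heavy chain, which oxidises the iron it takes up, went from 6.98 ± 0.16 to 7.31 ± 0.21 (mean ± SD, n = 6), or 0.33 higher (SE 0.07, adjusted p 0.0365). FTL, the light chain, went from 5.71 ± 0.25 to 6.11 ± 0.26, or 0.39 higher (SE 0.10, adjusted p 0.0459). Both were higher in 6 of 6 cows and with all their probes, 6 of 6 for FTH1 and 5 of 5 for FTL passing, though the ranges of CONT and REST overlapped.

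EPHX1, a microsomal epoxide hydrolase, changed by 0.39 with an SE of 0.11 (1.31-fold, adjusted p 0.0616), and 1 of its 2 probes passed. UGDH, which makes the sugar donor for glucuronidation, also changed by 0.39 with an SE of 0.11 (1.31-fold, adjusted p 0.0630). Both were higher in 6 of 6 cows. PGD, which regenerates NADPH in the pentose phosphate pathway, was the member of this list that fell. Its signal was 4.06 to 4.51 in CONT (median 4.29) and 3.58 to 3.97 in REST (median 3.73), without overlap between the periods. The change was -0.55 with an SE of 0.10 (0.685-fold, adjusted p 0.0212), with 5 of 5 probes passing and -0.64, -0.41 and -0.60 within slides.

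PGD also passed without the pairing (adjusted p 0.0200), which none of the other 7 genes named from these lists did (0.142 to 0.671), and it passed without each cow in turn. FTH1 was lost without cow 2 (adjusted p 0.110), and FTL without cow 1 or 2 (0.1002 and 0.128). The others held in few such fits: EPHX1, SQSTM1 and TXNIP without cow 3 or 5, UGDH without cow 1 or 6, and RBX1 without cow 6. Targets with a role in glutathione, GSR (-0.20, adjusted p 0.411) and GCLM (-0.06, 0.793), did not pass, and GCLC was above background on 0 arrays.

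**Figure D4:**
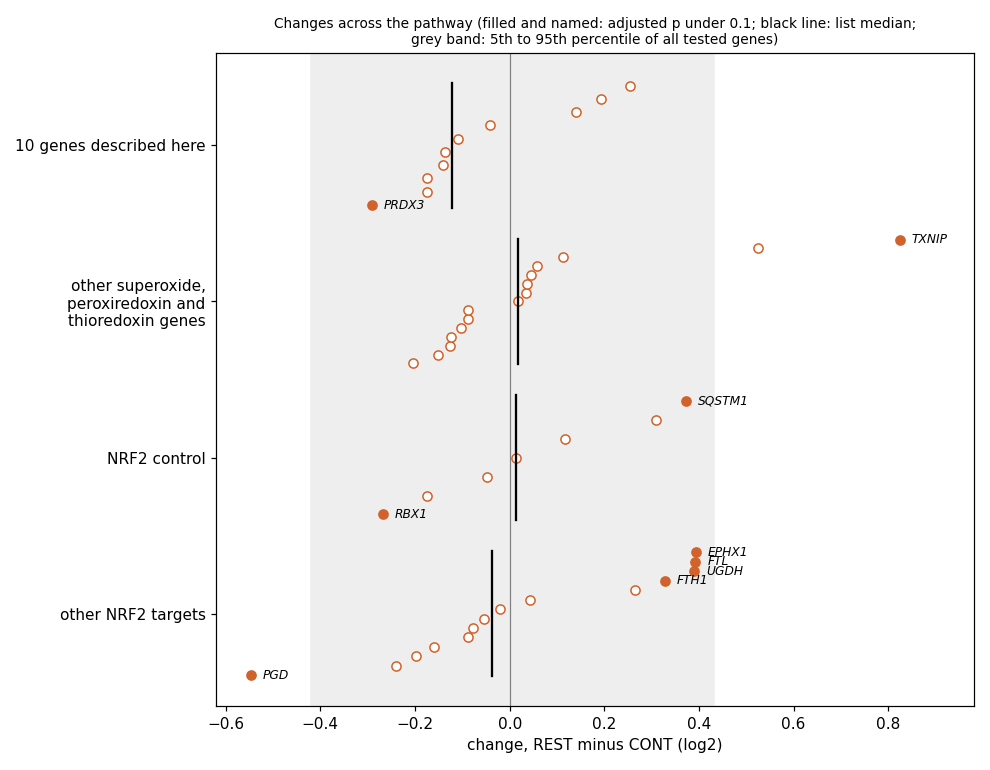
Change (REST minus CONT, log2) of every tested gene in the set of 10 and in the 3 pathway lists, filled and named where the adjusted p was under 0.1, with list medians as black lines and a grey band for the 5th to 95th percentile of all 7932 tested genes (-0.42 to 0.43). All 10 genes of the set lie inside the band, and PGD (-0.55), TXNIP (0.82) and SESN1 (0.53, adjusted p 0.182) lie outside it.

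Over 8 lists of cell type markers, 7 of 37 tested markers passed (18.9%), beside 16.2% of all tested genes, and without the pairing 1 passed, VWF, beside 4.41%. Of 5 tested luminal epithelial markers KRT8 (0.72, adjusted p 0.00891) and KRT18 (0.52, adjusted p 0.0680) passed, while EPCAM changed by 0.33, KRT19 by 0.12 and ELF5 by -0.05. The median of the luminal list was 0.33, and its summed level, which the brighter probes weigh most, changed by 0.06 ± 0.21 (mean ± SD, n = 6). Of the 5 myoepithelial markers ACTA2 passed (-0.38, adjusted p 0.0857), with a list median of 0.04 and a change of the summed level of -0.20 ± 0.24. Of the 5 endothelial markers VWF passed (0.54, adjusted p 0.00726), the others ran from KDR at -0.15 to PECAM1 at 0.32, and the list median was 0.13. The summed endothelial level changed by 0.31 ± 0.16 and was higher in 6 of 6 cows. CD3E, a T cell marker, was higher (0.35, adjusted p 0.0781), whereas the means of the remaining 4 of 5 tested leukocyte markers, CD2 of T cells among them (-0.17), lay below CONT and the list median was -0.15. Of the 5 adipocyte markers only FABP4 was tested, and it was lower (-0.35, adjusted p 0.0447). PLIN1 was above background on 0 arrays, LEP on at most 4 and CIDEC on at most 8, and ADIPOQ had no named probe. The adipocyte list thus rests on FABP4 alone. No fibroblast marker passed (0 of 6 in limma, 2 of 6 at an unadjusted p under 0.05), with changes from -0.54 to 0.32. The part of these values in the changes of the antioxidant genes was not tested.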

How the data were processed

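Total RNA (50 ng) of mammary biopsies was labelled with Cy3 by the authors and hybridised to bovine arrays, and spots were read with Agilent Feature Extraction 11 (per the labels). Per spot, the deposited files give a processed intensity (background-subtracted and detrended) and raw median intensities, unscaled between arrays. The deposited series table equalled the processed intensities for all 45220 spots. The methods name a 75th percentile shift in GeneSpring, which the deposited values do not carry. Here, each array's 75th percentile over non-control spots was subtracted from its log2 intensities, 1 to 13 spots marked as outliers per array were left out, repeat spots were averaged, and probes well above background on all arrays of CONT or of REST were tested (19406 probes). Symbols came from a RefSeq table through transcript accessions (27131 of 43653 probes). The table belongs to a newer assembly than the array, so no positions are given, and no sequence was used here.

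REST was compared with CONT using limma 3.58.1 in R 4.3.3, with the cow as a fixed block and Benjamini-Hochberg adjustment over all tested probes (threshold 0.1, that of the study). The labels name the cow of each sample, and across probes the deviations of both arrays of a cow correlated with r from 0.356 to 0.574, as against -0.33 to 0.134 for different cows. The cow block holds the slide as well. Biopsies of 6 cows per group are biological replicates, and their number limits the precision. For each gene the tested probe of highest mean signal is given, with the others beside it. Named by rule beyond the 10 genes were the genes of the pathway lists that passed, at most 5 per list. Other genes of these lists (KEAP1, CUL3, SESN1, SOD3, GSR, GCLM, GCLC and the remaining peroxiredoxins and thioredoxins) were named after their values had been seen. Marker sums are log2 of the summed linear signals of the tested markers. The genes, lists and tests were chosen with earlier results of these data known. The fit was tested on simulated data. Python 3.11.15 with pandas 2.3.3 read the files and matplotlib 3.10.9 drew the plots. Alternatives were no block, the cow as a random block, the slide as a block, quantile or median scaling, normexp correction (offset 50, on median signals because the files hold no mean signals), the series table, both filters on dim probes, outlier spots kept, eBayes with trend and robust, no moderation, each cow left out, the mean of all probes of a gene and, added after the data had been seen, no slide 3.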

Additional observations from a re-analysis of the deposited data

Results flagged for a closer look

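For the brightest probe of each of the 10 genes, the distance of the highest or lowest array from its nearest neighbour was taken as a share of the whole range, separately in CONT and REST (20 sets of 6 arrays). This share passed the 95% limit of Dixon in 3 sets, and chance alone passes it in about 1 of 20. SOD2 in CONT was 4.22 in cow 2, whereas the remaining cows had 1.96 to 2.45 (share 0.782). NQO1 in CONT was -0.46 in cow 3, whereas the remaining cows had 0.10 to 0.34 (share 0.702). PRDX5 in REST was 3.74 in cow 4, whereas the remaining cows had 3.94 to 4.06 (share 0.630). The causes were not tested.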

How the results depend on the processing

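The number of probes that passed, 3105, was 837 with no replicate block, 1899 with the slide as a block, 388 with no filter on dim probes, 723 with no moderation and independent groups, and between 1045 and 3253 without 1 cow. Of the 10 genes, 1 passed, and this became 0 with no replicate block, with the slide as a block, with no filter on dim probes and with no moderation and independent groups (which drops the block too), and 2 (PRDX3 and CAT) with the cow as a random block, with normexp and quantile normalization, and with eBayes with trend and robust. It was 0 or 1 without 1 cow. Under quantile normalization and under normexp with the 75th percentile shift the gene that passed was CAT, not PRDX3. SOD2 turned its sign under normexp with the 75th percentile shift (0.0737), normexp with quantile normalization (0.000879), the mean of its probes (0.00552), and without cow 3, 4 or 5. Without 1 cow it lay between -0.316 and 0.0984. The direction of the other 9 genes held in all 21 alternatives tried, but sizes moved. With normexp before the 75th percentile shift SOD1 was -0.04, PRDX1 -0.07, PRDX5 -0.01 and TXNRD1 -0.02. PRDX5 was -0.07 without cow 4, SOD1 -0.10 without cow 3, PRDX1 -0.11 without cow 6 and HMOX1 0.13 without cow 2. Quantile normalization gave -0.11 for SOD1 and -0.07 for PRDX5, and with normexp as well -0.08 for PRDX5 and -0.05 for NQO1. As the mean of its probes, which includes the 1 tested through REST alone, CAT was 0.44 (adjusted p 0.0642). The share of lower probes among those that passed was 54.8%, and 46.0% with normexp before the 75th percentile shift. The causes were not tested. The dim arrays of slide 3 limit probes near background. Without slide 3, PRDX3 changed by -0.41 (adjusted p 0.0842) CAT by 0.35 (0.128), SOD1 by -0.28, TXNRD1 by -0.25 and HMOX1 by 0.31.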

Other observations

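Genes with a pattern over the 12 arrays like that of SOD2 were listed after its values had been seen, as a description without a test. The highest correlation, r = 0.93 over 12 arrays (2 arrays per cow share an animal and a slide), was that of LBP, a secreted protein that binds bacterial lipopolysaccharide and belongs to the acute phase response. LBP was at 3.56 in cow 2 and 1.85 to 2.58 in the other cows in CONT. In REST it was at 4.11 in cow 1 and 4.57 in cow 2, and at 1.84 to 2.45 in the others. Cow 1 thus went from 1.85 to 4.11, and SOD2 in this cow from 2.40 to 3.72. The mean change of LBP was 0.44 (adjusted p 0.399). The next in order were CLCN7, ALKBH3, PBXIP1 and SORD, with r from 0.89 to 0.90. Further down the list were the mitochondrial genes NDUFB10 and MTIF3 and the ribosomal protein genes RPL12, RPS13 and RPL7A (r from 0.87 to 0.88). The pattern was therefore not particular to an acute phase gene.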
